A study of Mus musculus with 72 samples.

Results

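The vascular endothelial growth factor (VEGF) family was followed in 6 mouse melanoma lines treated with gastrin-releasing peptide (GRP). Its 9 genes, Vegfa, Vegfb, Vegfc, Vegfd, Pgf, Flt1, Kdr, Nrp1 and Nrp2, were taken by symbol from a table of 50600 genes counted in 72 RNA-seq libraries. The lines came from melanomas of transgenic mice that carry Tyr::NRASQ61K, an activated NRAS driven by the tyrosinase promoter of pigment cells. Lines 1057 and 1064, both female, are also labelled Cdkn2a-/-, Tyr::CreA/° and Cdh1dF/dF, that is, deleted for E-cadherin in pigment cells, and express the GRP receptor GRPR. Line 1181, male, is labelled Cdkn2a-/- and Cdh1dF/dF with no Cre, and line 1014, female, is labelled with the NRAS transgene alone. Both exist as a version transfected with CMV::Grpr/tGFP (1181-Grpr, 1014-Grpr) and a version with CMV::tGFP (1181-Ctrl, 1014-Ctrl), in which Grpr or the marker is driven by a viral promoter. After 18 h in 0.5% serum, cells of each line were kept for 4 h with 0.1% DMSO (mock), with GRP at 10 nM, with the GRPR antagonist RC-3095 (RC) at 1 µM, or with both (GRP+RC), in 3 replicates. The age of the mice is not in the labels, and each line is a culture of 1 tumour, so differences between lines are not differences between genotypes or sexes. The labels do not say that replicates are separate cultures, so the p-values measure the spread between these samples, which may be technical.

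VEGF family ligands are secreted dimers that drive the growth and permeability of vessels. Vegfa is the main mitogen of endothelial cells and acts through the tyrosine kinase receptors Kdr (VEGFR2) and Flt1 (VEGFR1). Pgf (placental growth factor) and Vegfb bind Flt1 and not Kdr, and Vegfc and Vegfd act on lymphatic vessels through Flt4 (VEGFR3). Nrp1 and Nrp2 are co-receptors without kinase activity that also bind class 3 semaphorins. Melanoma cells are known as a source of Vegfa and often carry neuropilins.

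Libraries held 19512882 to 46862053 counted reads, and 3 counts, the floor used here, corresponded to at most 0.154 CPM (read counts scaled to the library total). Grpr lay at 188 to 276 CPM in 1057, 469 to 1273 in 1064, 109 to 632 in 1014-Grpr and 0 to 80.7 in 1181-Grpr. It lay between 0 and 0.0914 CPM in 1181-Ctrl and between 0 and 48.1 CPM in 1014-Ctrl. Cdh1, which encodes E-cadherin, was at most 0.117 CPM in 1057 and 1064. It was at 14.4 to 27.0 CPM in 1181-Ctrl, 4.62 to 25.2 in 1181-Grpr, 0.701 to 3.15 in 1014-Grpr and 1.88 to 22.7 in 1014-Ctrl. Of the 72 libraries, 2 went against their labels in the Y-linked gene Ddx3y, in Grpr and in Cdh1. The library labelled 1014-Ctrl mock 2 held Ddx3y at 64.3 CPM, the other libraries of that female line being at 0. The library labelled 1181-Grpr GRP+RC 2 held none, against 36.9 to 63.0 CPM in the rest of that male line. Without these 2 libraries Grpr lay at 8.46 to 80.7 CPM in 1181-Grpr and at most at 0.0334 CPM in 1014-Ctrl. Cdh1 then lay at 9.74 to 25.2 CPM in 1181-Grpr and 1.88 to 5.13 CPM in 1014-Ctrl. Tests that change without the 2 libraries are given both ways. All 10 melanocytic markers had a median above 1 CPM in each line. Of 11 endothelial markers 1 or 2 did (sum 3.81 to 29.3 CPM, Vwf at most 29.0 CPM and Pecam1 at most 0.465 CPM). None of 7 leukocyte markers did (sum at most 0.516 CPM). Of 6 pericyte and fibroblast markers 1 to 3 did, with a summed level of 5.99 to 18.3 CPM in 1057 and 1014-Grpr. The sum was 156 to 286 CPM in 1064 and 138 to 217 CPM in 1181-Ctrl, nearly all of it Cspg4, which melanoma cells also express. Cspg4 had a median of 182 CPM in 1064, 174 in 1181-Ctrl, 12.8 in 1014-Grpr and 2.44 in 1057. Pdgfra had a median of 5.50 CPM in 1057, above Cspg4 there, and of 0.879 to 3.05 CPM in the other lines. Lum was at most 0.0413 CPM. Of 2 lymphatic endothelial markers, Prox1 had a median of 11.5 CPM in 1064, 8.36 in 1181-Grpr and 16.1 in 1181-Ctrl and of at most 0.174 CPM in the other lines. The part of other cells in these levels was not tested. In bulk RNA, fewer cells with a transcript and less transcript per cell cannot be told apart.

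The genes are scattered over the GRCm38 genome. Vegfa (ENSMUSG00000023951) lies on chromosome 17 from 46016993 to 46032369, Vegfb (ENSMUSG00000024962) on chromosome 19 from 6982473 to 6987651 and Pgf (ENSMUSG00000004791) on chromosome 12 from 85166635 to 85177790, all on the minus strand. Vegfc (ENSMUSG00000031520) lies on chromosome 8 from 54077606 to 54187096, Nrp1 (ENSMUSG00000025810) on the same chromosome from 128358604 to 128503363, Nrp2 (ENSMUSG00000025969) on chromosome 1 from 62703285 to 62818695 and Vegfd (ENSMUSG00000031380) on chromosome X from 164373378 to 164402650, all on the plus strand. Flt1 (ENSMUSG00000029648) lies on chromosome 5 from 147561604 to 147726011 and Kdr (ENSMUSG00000062960) on chromosome 5 from 75932827 to 75978458, both on the minus strand. Exons of the 9 genes overlap no other annotated exon except Nrp1, which shares 0.8% of its exon bases with Mir1903.

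The promoters of Vegfa, Vegfc and Nrp1, which changed with GRP in at least 2 lines, are printed to show what these genes hold just upstream of their start. Each is the 250 bases before a RefSeq start on GRCm38.p6, for Vegfa the upstream one of 2 starts, read 5′ to 3′ on the strand of the gene, with matches to the motifs searched in capitals. The windows are chr17:46032378-46032627 on the minus strand for Vegfa, chr8:54077282-54077531 on the plus strand for Vegfc and chr8:128358823-128359072 on the plus strand for Nrp1.
Vegfa: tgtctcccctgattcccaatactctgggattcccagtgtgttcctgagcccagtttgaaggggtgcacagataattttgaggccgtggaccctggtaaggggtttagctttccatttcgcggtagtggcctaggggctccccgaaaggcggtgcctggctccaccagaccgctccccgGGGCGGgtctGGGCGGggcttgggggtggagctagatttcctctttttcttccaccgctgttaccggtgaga
Vegfc: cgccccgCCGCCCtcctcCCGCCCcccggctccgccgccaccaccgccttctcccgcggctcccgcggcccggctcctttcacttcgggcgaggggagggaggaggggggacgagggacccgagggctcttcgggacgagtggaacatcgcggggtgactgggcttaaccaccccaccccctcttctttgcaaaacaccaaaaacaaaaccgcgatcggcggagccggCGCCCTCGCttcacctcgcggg
Nrp1: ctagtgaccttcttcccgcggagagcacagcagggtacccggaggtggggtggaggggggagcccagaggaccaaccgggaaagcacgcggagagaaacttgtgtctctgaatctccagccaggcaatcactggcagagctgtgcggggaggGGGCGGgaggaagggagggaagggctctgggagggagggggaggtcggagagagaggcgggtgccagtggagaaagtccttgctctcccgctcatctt
The motifs, searched on both strands, were ACGTG (hypoxia response), TGANTCA (AP-1), TGACGTCA (CRE), GCGNGGGCG (EGR), GGAATG (TEAD) and GGGCGG (GC box), of which the EGR and GC box motifs can overlap. Vegfa held 2 GC boxes, 72 to 57 bases before the start, Nrp1 held 1, and Vegfc held 2 and an EGR match. The 3 windows printed held no match to the hypoxia response, AP-1, CRE or TEAD letters. The window of the second Vegfa start, chr17:46025164-46025413, lies in an annotated Vegfa exon and is not printed; it held 1 hypoxia response match, 211 to 207 bases before that start, and 1 GC box. The 250 bases before the first RefSeq start of Pgf, which lie in an exon of another Pgf transcript and are not printed, held 2 GC boxes and no other match. Of 32851 promoters of the same length, 32.7% held a GC box, 4.7% an EGR match, 16.6% a hypoxia response match, 12.6% a TEAD match, 6.75% an AP-1 match and 1.55% a CRE match. These matches describe letters and not binding.

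In mock-treated cells each line held the ligands Vegfa, Vegfb and Vegfc and at least 1 neuropilin, and hardly the kinase receptors. In 1064 the ligand Pgf was at a high level as well. On the scale of the authors' TPM, in which counts are divided by transcript length so that levels of different genes can be compared, Vegfb led in 1064, 1014-Grpr, 1181-Grpr, 1014-Ctrl and 1181-Ctrl among Vegfa, Vegfb and Vegfc, with mean levels of 140 ± 55.0 (SD, n = 3), 161 ± 12.5, 226 ± 46.6, 235 ± 57.6 and 271 ± 43.3 TPM. In 1057 Vegfa led with 81.4 ± 1.44 TPM, above Vegfb at 52.8 ± 4.87 and Vegfc at 36.6 ± 2.77. Vegfa was at a mean of 79.9 to 133 TPM over the 6 lines and Vegfc at 26.1 to 57.2 TPM. Pgf was highest in 1064, at 200 ± 178 TPM, against 4.44 ± 0.411 in 1057 and 0.683 to 1.21 in the other 4 lines. Nrp1 was found in each line, from 8.07 ± 0.687 TPM in 1181-Ctrl to 26.9 ± 1.99 in 1057. Nrp2 was at 119 ± 8.13 TPM in 1014-Grpr, 93.4 ± 60.2 in 1014-Ctrl, 28.6 ± 2.32 in 1181-Grpr and 2.42 ± 0.530 in 1181-Ctrl, at 0.0300 ± 0.0265 in 1064 and at 0 in 1057. Vegfd reached 5.84 ± 2.53 TPM in 1181-Ctrl and 2.42 ± 0.594 in 1181-Grpr and had a mean under 1 TPM elsewhere. Without the library labelled 1014-Ctrl mock 2, the 1014-Ctrl mock libraries held Nrp2 at 111 and 143 TPM and Vegfb at 193 and 211 TPM.

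**Figure D1:**
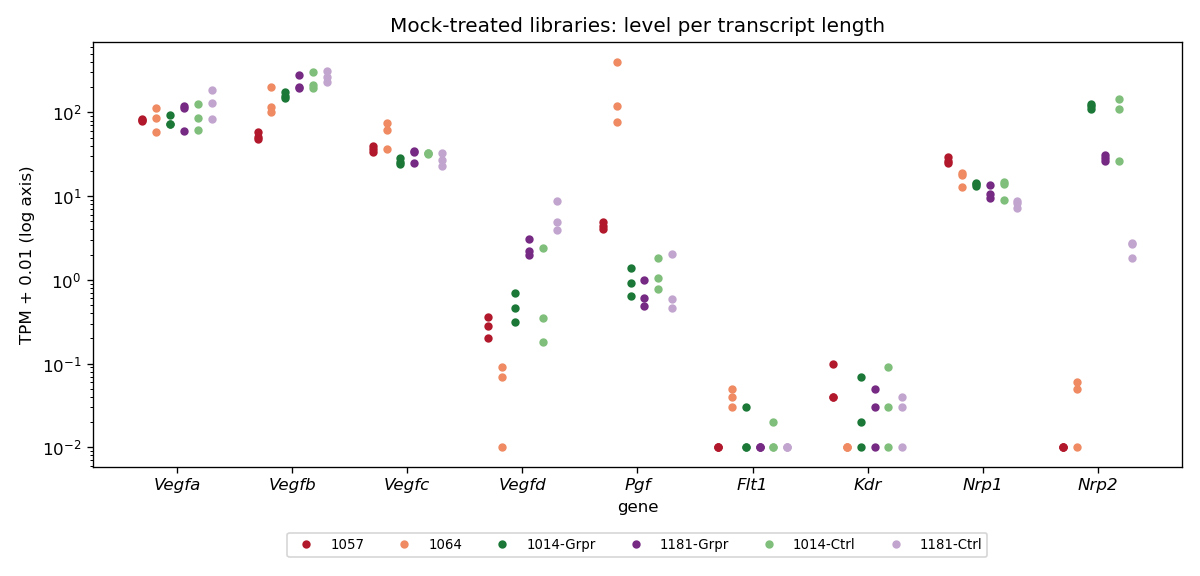
Resting levels of the 9 VEGF genes. Each point is 1 mock library (3 per line), with TPM plus 0.01 on a log axis for each gene and line. Vegfa, Vegfb, Vegfc and Nrp1 are present in each line, Pgf is highest in 1064, Nrp2 is high in the 1014 lines and 1181-Grpr, and Flt1 and Kdr lie at the bottom.

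Flt1 and Kdr, the kinase receptors for Vegfa, were at or near 0. The highest count in any of the 72 libraries was 6 reads for Flt1 and 10 for Kdr. Flt1 was at 0 in 38 libraries and at or under 3 counts in 65, and Kdr was at 0 in 32 and at or under 3 counts in 59. Neither passed the filter on low counts in any fit, so no change could be tested at this depth. Flt4, the receptor for Vegfc and Vegfd, reached at most 1.85 CPM.

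Resting levels were compared in 1 edgeR quasi-likelihood fit of the 18 mock libraries, with Benjamini-Hochberg adjustment over all 15358 genes tested. Between the E-cadherin-deleted lines, 4 of the 7 members tested passed at an adjusted p under 0.05 (49.4% of all genes passed). Without 1014-Ctrl mock 2, which is of another line but enters the shared fit, 6 of 7 passed (55.1% of all genes), adding Vegfd and Nrp2. Both passed the filter on low counts through other lines, so no difference is drawn from these 2 calls. Vegfd had at most 9 reads in any library of 1057 and 4 in 1064, and Nrp2 at most 9 and 6. In mock Nrp2 was at 0 in 1057 and at a mean of 0.122 CPM in 1064, at least 1.32-fold above the floor of 3 counts. Pgf was lower in 1057 than in 1064 (log2 -5.50, standard error 0.639, adjusted p = 6.61e-06). Vegfb (-1.36, adjusted p = 1.84e-04) and Vegfc (-0.61, adjusted p = 0.0183) were also lower in 1057, and Nrp1 was higher (0.73, adjusted p = 0.00465). Vegfc lost the call without 1057 mock 1 (adjusted p = 0.0679), 1057 mock 3 (0.0560) or 1064 mock 2 (0.131) in the same edgeR fit.

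Between the versions of a line, the clearest difference was in Nrp2. It lay at 97.0, 84.2 and 90.8 CPM in mock-treated 1181-Grpr and at 7.93, 5.67 and 8.50 CPM in 1181-Ctrl, a 12.4-fold difference (log2 3.63, standard error 0.484, edgeR adjusted p = 2.31e-04). It was the 1 member of 7 that passed, where 9.73% of all genes did. Without the 2 libraries that went against their labels, Vegfd (-1.20, edgeR adjusted p = 0.0234) and Nrp1 (0.53, adjusted p = 0.0263) passed as well. Between 1014-Grpr and 1014-Ctrl no member of 7 passed with edgeR or DESeq2, 1 was under an unadjusted p of 0.05 with edgeR, and 0.0846% of all genes passed. No member passed without the 2 libraries either (0.234% of all genes).

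Nrp2 also separated the 1014 and 1181 lines. In 1181-Ctrl against 1014-Ctrl, 3 of 7 members passed (34.6% of all genes): Nrp2 was lower (log2 -5.37, edgeR adjusted p = 7.49e-06), Nrp1 was lower (-0.72, adjusted p = 0.00899) and Vegfd was higher (2.51, adjusted p = 0.00804). The mock-treated 1014-Ctrl libraries held Nrp2 at 362, 85.5 and 453 CPM and Vegfd at 0.114, 1.57 and 0.222 CPM, where the second value is the library labelled 1014-Ctrl mock 2. Without the 2 libraries the log2 differences were -5.82 for Nrp2, -0.92 for Nrp1 and 4.37 for Vegfd. The Nrp1 call was lost without 1014-Ctrl mock 3 (edgeR adjusted p = 0.0521). In 1057 against 1014-Ctrl, 4 of 7 members passed (54.8% of all genes), Nrp1 (1.38, edgeR adjusted p = 2.24e-05) and Pgf (2.13, adjusted p = 0.0123) being higher and Vegfb (-1.88, adjusted p = 7.88e-06) and Nrp2 lower. Without the 2 libraries these calls held in edgeR, at 1.19 for Nrp1, 1.90 for Pgf (adjusted p = 0.0464) and -1.66 for Vegfb. With the replicate number as a block Vegfc was higher as well (0.45, edgeR adjusted p = 0.0314, against 0.0655 without it). As Nrp2 had no read in mock-treated 1057, its difference is given against the floor of 3 counts per library, and it was at least 3257-fold lower than in 1014-Ctrl, and at least 4422-fold lower than in the other 2 mock libraries of 1014-Ctrl.

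GRP changed members of the family in 1057, 1064 and 1014-Grpr. Each line was fitted alone on its 12 libraries with edgeR, and a gene passed at an adjusted p under 0.05 over all genes tested; the fold rule asks in addition for an absolute log2 fold change above 1. In 1057, 4 of 5 tested members passed, where 52.6% of all genes did, and 1 of them met the fold rule, where 6.46% did. In 1064, 1 of 5 passed (6.38% of all genes) and met the fold rule (2.32%). In 1014-Grpr, 3 of 6 passed (29.0%) and 1 met the fold rule (4.01%). In 1064 and 1014-Grpr the replicate numbers paired the libraries, and with the replicate number as a block 5 of 5 and 6 of 6 members passed, where 43.5% and 53.7% of all genes did.

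Pgf changed most. In 1057 it lay at 2.64, 2.14 and 2.23 CPM in mock-treated cells and at 29.6, 33.1 and 35.3 CPM with GRP. The 14.2-fold rise (log2 3.83, standard error 0.0928, edgeR adjusted p = 3.58e-16) was the largest change with GRP of a member in any line. In 1064 the mock libraries held 37.4, 60.6 and 220 CPM and the GRP libraries 276, 673 and 550 CPM, without overlap. Overlap was not counted over all genes. The change there was 2.25 on the log2 scale (standard error 0.598, edgeR adjusted p = 0.0521), 2.41 with the block (standard error 0.375, adjusted p = 6.25e-04) and 3.36 without 1064 mock 3 (adjusted p = 0.00355). In 1014-Grpr Pgf was at 0.614, 0.395 and 0.265 CPM in mock and at 1.19, 1.06 and 1.58 CPM with GRP, again without overlap (log2 1.58, standard error 0.307, edgeR adjusted p = 0.00232), at a level of 6 to 18 reads in the mock libraries.

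Vegfa rose in 1057 and 1014-Grpr by less than Pgf did. In 1057 it went from 117, 117 and 114 CPM to 202, 180 and 194 CPM (log2 0.75, standard error 0.0389, edgeR adjusted p = 1.18e-11). In 1014-Grpr it went from 87.1, 87.1 and 107 CPM to 154, 188 and 179 CPM (log2 0.90, standard error 0.106, adjusted p = 7.07e-05 with edgeR). In 1064 the values were 76.3, 118 and 166 CPM in mock and 186, 256 and 276 CPM with GRP. The groups did not overlap in any of the 3 lines, a separation that was not counted over all genes. The change in 1064 was 1.00 on the log2 scale (standard error 0.272, edgeR adjusted p = 0.0556), 1.04 with the block (standard error 0.104, adjusted p = 9.33e-05) and 1.31 without 1064 mock 3 (adjusted p = 0.0183).

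**Figure D2:**
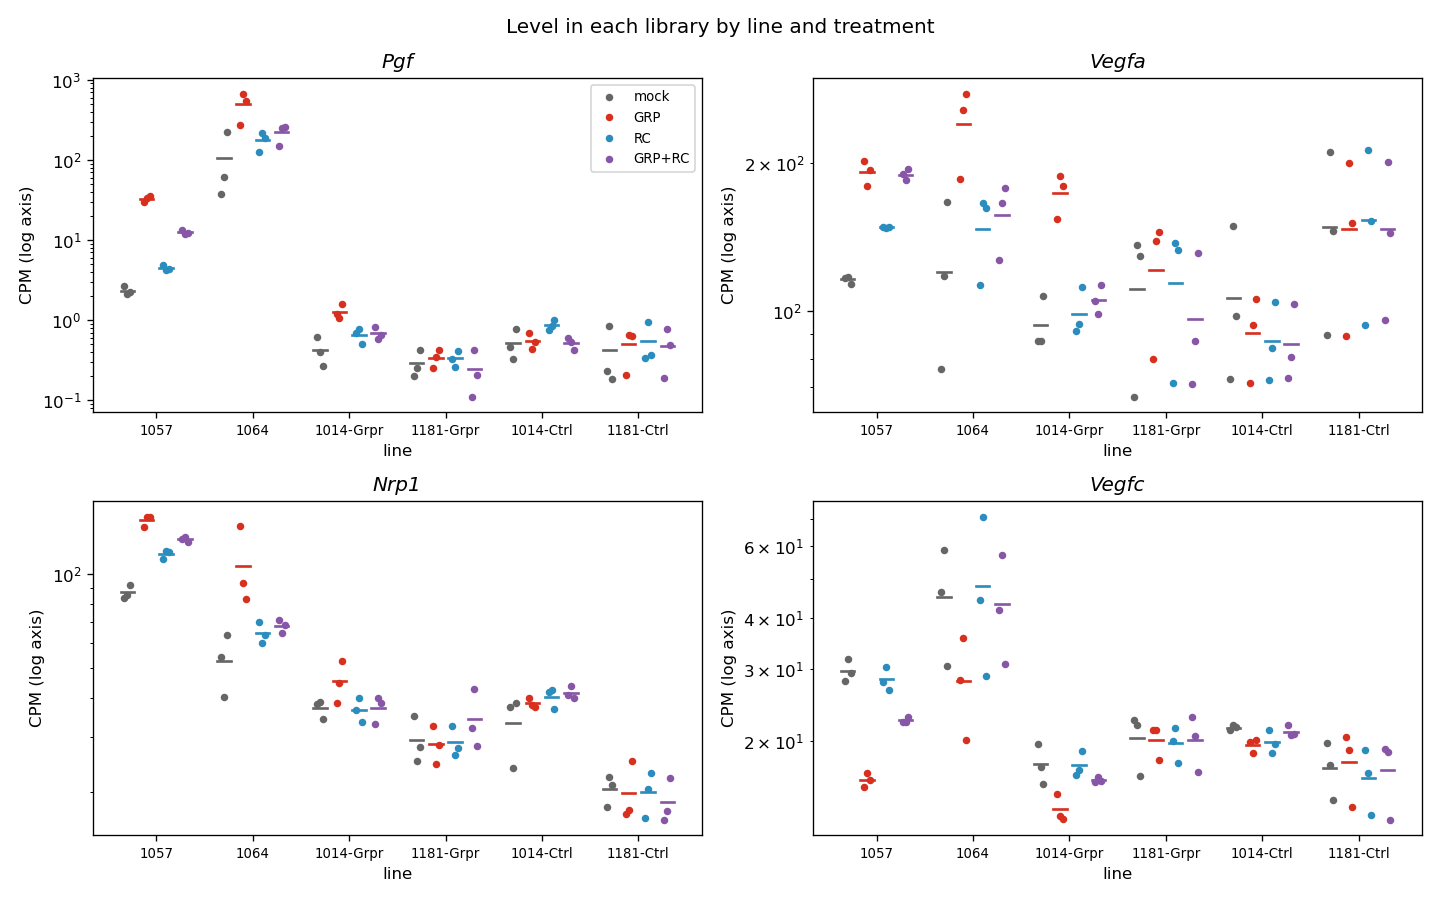
Levels of Pgf, Vegfa, Nrp1 and Vegfc by library. CPM is on a log axis, each point is 1 library (3 per treatment), bars are means, and the 6 lines are shown with mock, GRP, RC and GRP+RC. Pgf in 1057 moves from 2.14 to 2.64 CPM in mock to 29.6 to 35.3 CPM with GRP, and the same 3 replicates of 1181-Ctrl lie apart from each other in Vegfa under each treatment.

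Vegfc, the lymphatic ligand, moved the other way. In 1057 it fell from 28.1, 31.7 and 29.3 CPM to 15.4, 16.7 and 16.1 CPM (log2 -0.86, standard error 0.0602, edgeR adjusted p = 9.17e-10). In 1014-Grpr it fell from 19.7, 17.3 and 15.7 CPM to 14.8, 13.1 and 12.9 CPM (log2 -0.37, standard error 0.0953, edgeR adjusted p = 0.0126), a call that was lost without 1014-Grpr mock 1 (adjusted p = 0.0575) or GRP 3 (0.0566). In 1064 the mock libraries held 46.2, 58.7 and 30.6 CPM and the GRP libraries 28.2, 35.8 and 20.1 CPM, so that the groups overlapped although each GRP library was below the mock library of its number. The change there was -0.68 on the log2 scale (standard error 0.366, edgeR adjusted p = 0.314) and -0.67 with the block (standard error 0.0840, adjusted p = 2.11e-04).

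Vegfb, which binds Flt1, had the smallest log2 changes among the 4 ligands tested. In 1057 it was at 26.6, 30.8 and 26.9 CPM in mock and 23.3, 25.9 and 26.6 CPM with GRP (log2 -0.13, standard error 0.0770, edgeR adjusted p = 0.184). In 1014-Grpr the values were 78.6, 70.5 and 64.6 against 64.9, 57.4 and 47.4 CPM (log2 -0.33, standard error 0.115, edgeR adjusted p = 0.0522, and 1.52e-05 with the block). In 1064 they were 100.3, 59.8 and 56.2 against 80.3, 44.3 and 52.2 CPM (log2 -0.29, standard error 0.355, edgeR adjusted p = 0.712, and 0.0114 with the block). Vegfd was too low to be tested in these 3 lines.

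Nrp1, the co-receptor, rose in both E-cadherin-deleted lines. It went from 83.5, 85.8 and 92.4 CPM to 141, 153 and 152 CPM in 1057 (log2 0.79, standard error 0.0415, edgeR adjusted p = 1.35e-11). In 1064 it went from 54.1, 40.3 and 63.5 CPM to 143, 93.3 and 83.1 CPM (log2 1.02, standard error 0.204, edgeR adjusted p = 0.0187, and 5.85e-04 with the block), the groups not overlapping. That call was lost without 1064 mock 1 (edgeR adjusted p = 0.0693) or mock 2 (0.0741) when no block was used. The separation of the groups in 1064 was not counted over all genes. In 1014-Grpr Nrp1 was at 38.3, 38.9 and 34.2 CPM in mock and 38.6, 44.8 and 52.5 CPM with GRP (log2 0.30, edgeR adjusted p = 0.0668, and 0.00520 with the block). Nrp2 in 1014-Grpr was at 366, 396 and 400 CPM in mock and 338, 355 and 374 CPM with GRP (log2 -0.12, edgeR adjusted p = 0.173, and 0.00982 with the block). In 1057 and 1064 Nrp2 was at or under 0.288 and 0.206 CPM in each library and was not tested.

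**Figure D3:**
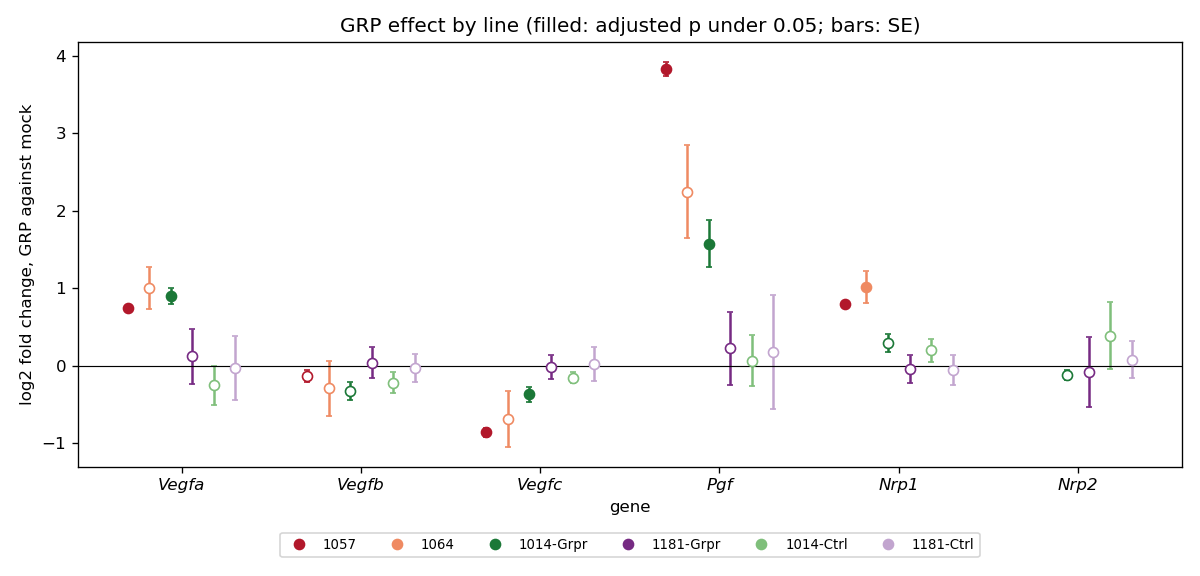
Effect of GRP on 6 VEGF genes in the 6 lines. Points are log2 fold changes of GRP against mock from edgeR, bars are standard errors, and filled points passed at an adjusted p under 0.05 without the block. Pgf, Vegfa and Nrp1 lie above 0 and Vegfc below 0 in 1057, 1064 and 1014-Grpr, and no point is filled in 1181-Grpr, 1014-Ctrl or 1181-Ctrl.

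In 1181-Grpr, 1014-Ctrl and 1181-Ctrl no member passed for GRP against mock, out of 7, 6 and 7 tested, with edgeR or DESeq2, and 0 of them were under an unadjusted p of 0.05 in edgeR. Over all genes 0%, 0% and 0% passed, with 45, 562 and 37 genes under an unadjusted p of 0.05. In 1181-Grpr Vegfa was at 67.0, 136 and 129 CPM in mock and 80.0, 139 and 145 CPM with GRP, and Pgf at 0.200, 0.249 and 0.419 against 0.252, 0.342 and 0.426 CPM. These groups overlapped. Grpr in this line had a median of 18.0 CPM, below the lowest library of 1057, 1064 and 1014-Grpr. Without the 2 libraries that went against their labels and with the block, no member passed in 1181-Grpr or 1014-Ctrl either. Over all genes 67 (0.454%) passed in 1181-Grpr in that edgeR fit and 1 (0.00719%) in 1014-Ctrl. The libraries of 1181-Ctrl held Vegfa at 88.8 to 95.9 CPM in replicate 1, 200 to 213 CPM in replicate 2 and 144 to 152 CPM in replicate 3 over the 4 treatments, so replicates differed more than treatments did.

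Whether GRP acted differently in the receptor version and the control version of a line was tested as an interaction on 24 libraries. For 1014, 2 of 7 members passed (13.6% of all genes). The effect on Vegfa was 1.14 higher on the log2 scale in 1014-Grpr than in 1014-Ctrl (standard error 0.287, edgeR adjusted p = 0.0112) and 0.83 without the 2 libraries (adjusted p = 0.0193). For Pgf the difference was 1.51 (standard error 0.454, edgeR adjusted p = 0.0317) and 1.75 without the 2 libraries (adjusted p = 0.01001). Pgf lost the call when any 1 of 6 libraries was left out, with an edgeR adjusted p of 0.0641 to 0.101: GRP 2, mock 3 and GRP 3 of 1014-Ctrl, and mock 2, mock 3 and GRP 3 of 1014-Grpr. For 1181, no member of 7 passed with edgeR or DESeq2 (0% of all genes, 0 members and 58 genes under an unadjusted p of 0.05).

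The antagonist alone changed members in 1057. For RC against mock 3 of 5 members passed (24.3% of all genes), each in the direction of GRP. Pgf was at 4.92, 4.28 and 4.35 CPM with RC (log2 0.95, standard error 0.123, edgeR adjusted p = 1.82e-05), Vegfa at 148, 148 and 148 CPM (0.35, standard error 0.0392, adjusted p = 3.59e-06) and Nrp1 at 111.9, 118 and 118 CPM (0.40, standard error 0.0418, adjusted p = 1.34e-06). All RC libraries lay above all mock libraries for these 3 genes, a separation that was not counted over all genes. In the other 5 lines no member passed for RC with edgeR or DESeq2, and 0% of all genes did in each. In edgeR without the block 1 member, in 1014-Ctrl, was under an unadjusted p of 0.05. No member passed with the block in 1064 or 1014-Grpr either. The blocked log2 changes in 1064 were of similar size to those in 1057 for Pgf (0.96, standard error 0.366), Vegfa (0.33, 0.103) and Nrp1 (0.30, 0.154). In 1014-Grpr they were 0.59 for Pgf (0.356), 0.09 for Vegfa (0.0615) and -0.02 for Nrp1 (0.0863). The comparisons with mock share the mock libraries.

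Added to GRP, the antagonist lowered Pgf most in 1057. For GRP+RC against GRP 3 of 5 members passed there (24.7% of all genes). Pgf was at 13.2, 11.7 and 12.3 CPM, 1.42 lower on the log2 scale than with GRP alone (-1.42, standard error 0.0714, edgeR adjusted p = 1.84e-10) and still 2.41 higher than mock (adjusted p = 2.17e-12). Vegfc was at 22.2, 22.3 and 22.9 CPM, between mock and GRP (0.46 against GRP, edgeR adjusted p = 2.24e-05). Nrp1 was at 130, 131 and 127 CPM (-0.23 against GRP, edgeR adjusted p = 3.97e-04). Vegfa was at 189, 184 and 194 CPM, within the range of GRP alone (-0.04, standard error 0.0382, edgeR adjusted p = 0.479). Against mock, 4 of 5 members still passed with GRP+RC in 1057 (44.3% of all genes), Vegfa at 0.71 (edgeR adjusted p = 6.38e-11), Nrp1 at 0.57 (3.15e-09) and Vegfc at -0.40 (1.69e-05) besides Pgf.

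In 1014-Grpr Vegfa under GRP+RC was at 105, 98.5 and 113 CPM, below each GRP library (log2 -0.72, standard error 0.105, edgeR adjusted p = 9.44e-04), the 1 member of 6 that passed against GRP (11.8% of all genes). The separation of Vegfa from the GRP libraries was not counted over all genes. Pgf was at 0.817, 0.575 and 0.653 CPM (-0.92, edgeR adjusted p = 0.0650). With the block 5 of 6 passed (38.7% of all genes), adding Pgf (-0.95, edgeR adjusted p = 0.0123), Vegfb (0.32, 6.04e-05), Vegfc (0.24, 0.0230) and Nrp1 (-0.30, 0.00900). Against mock no member passed under GRP+RC with edgeR or DESeq2 (1 under an unadjusted p of 0.05, 0.947% of all genes). Vegfa (0.18, edgeR adjusted p = 0.0482) and Nrp2 (-0.15, adjusted p = 0.00594) passed with the block, where 17.3% of all genes did.

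In 1064 Vegfa was at 127, 166 and 177 CPM with GRP+RC, Pgf at 149, 251 and 260 CPM, Nrp1 at 71.0, 64.8 and 68.4 CPM and Vegfc at 41.8, 57.3 and 30.8 CPM. Pgf, Vegfa and Nrp1 lay below each GRP library, and Vegfc overlapped with GRP. How many of all genes separated in this way was not counted. No member passed against GRP with edgeR or DESeq2 (2 of 5 under an unadjusted p of 0.05, 0.0290% of all genes). With the block 4 did (21.2% of all genes): Vegfa (-0.62, edgeR adjusted p = 0.00381), Pgf (-1.16, 0.0403), Nrp1 (-0.64, 0.0155) and Vegfc (0.61, 0.00209). Against mock none of 5 passed with edgeR, the block or DESeq2 (0% of all genes). In edgeR without the block 0 members were under an unadjusted p of 0.05. With the block Vegfa, Pgf, Nrp1 and Vegfb were under it, and Vegfc was not. The blocked log2 changes from mock were 0.42 for Vegfa (standard error 0.103), 1.25 for Pgf (0.365) and 0.37 for Nrp1 (0.154). They were -0.18 for Vegfb (0.0745) and -0.07 for Vegfc (0.0815). In 1181-Grpr, 1014-Ctrl and 1181-Ctrl no member and 0% of genes passed in either comparison of GRP+RC with edgeR or DESeq2, with 1 member of 7 under an unadjusted p of 0.05 in each comparison of 1181-Grpr and none in the control lines. The GRP+RC libraries of 1181-Grpr held Nrp2 at 95.7, 383 and 90.2 CPM, the second being the library that went against its label, and without the 2 libraries no member was under an unadjusted p of 0.05.

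**Figure D4:**
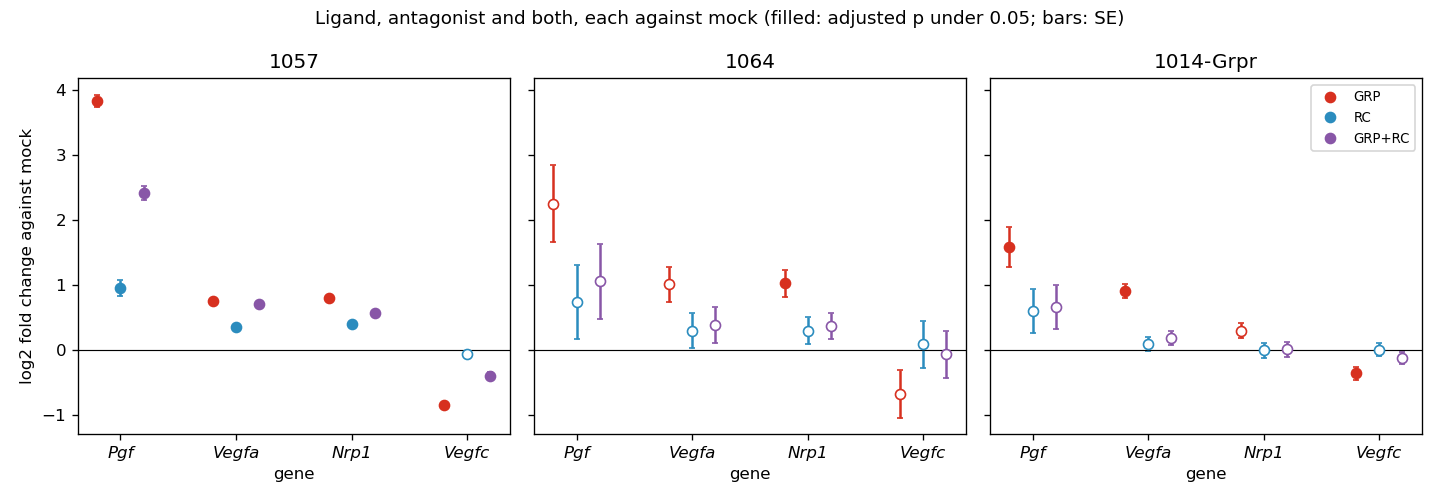
Effects of GRP, RC and GRP+RC on Pgf, Vegfa, Nrp1 and Vegfc in 1057, 1064 and 1014-Grpr. Points are log2 fold changes against mock from edgeR, bars are standard errors, and filled points passed without the block. In 1057 Pgf stands at 3.83 with GRP, 0.95 with RC and 2.41 with GRP+RC, whereas Vegfa is nearly the same with GRP (0.75) and GRP+RC (0.71).

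The changes shifted the mix of ligand transcripts, given here as each ligand's share of the summed TPM of the 5 ligands and not tested. In 1057 Pgf went from 2.54% ± 0.356 (SD, n = 3) in mock to 23.5% ± 1.68 with GRP, 4.17% ± 0.355 with RC and 9.94% ± 0.383 with GRP+RC. Vegfc went from 20.8% to 7.49% and Vegfb from 30.1% to 17.9% with GRP, Vegfa holding 46.4% and 51.0%. The sum of the ligands rose from 176 ± 8.69 to 256 ± 7.78 TPM. In 1064 Pgf held 37.0% ± 22.1 in mock and 73.3% ± 9.61 with GRP, at sums of 482 ± 149 and 1184 ± 340 TPM. In 1014-Grpr Vegfa went from 29.8% ± 4.48 to 49.4% ± 5.55 and back to 32.8% ± 3.05 with GRP+RC, and Vegfb from 60.0% to 42.8% with GRP, while the sum was 269 ± 9.97 and 280 ± 16.2 TPM.

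**Figure D5:**
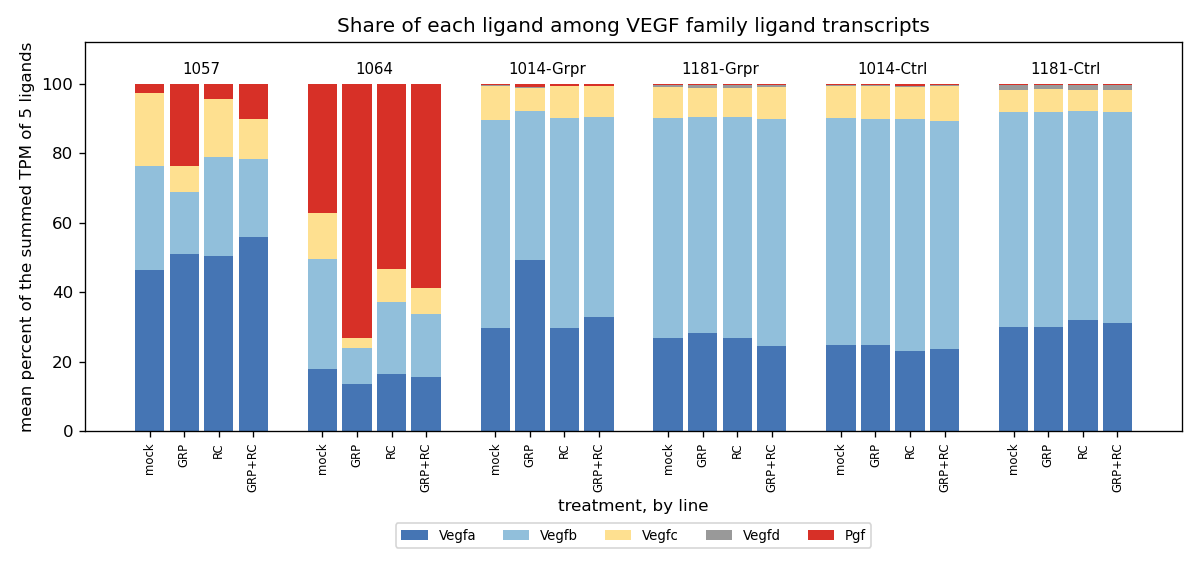
Mix of ligand transcripts by line and treatment. Stacked bars are the mean percent of the summed TPM of Vegfa, Vegfb, Vegfc, Vegfd and Pgf (n = 3 libraries per bar). With GRP the Pgf segment grows from 2.54% to 23.5% in 1057 and from 37.0% to 73.3% in 1064, and the Vegfa segment grows from 29.8% to 49.4% in 1014-Grpr.

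Other genes of the pathway were read from fixed lists. Their counts in GRP against mock stand beside a share of all genes passing of 52.6% in 1057, 6.38% in 1064 and 29.0% in 1014-Grpr, or 43.5% in 1064 and 53.7% in 1014-Grpr with the block, and a median log2 fold change over all genes of -0.01, -0.02 and -0.02 in the 3 lines. Of 8 genes of oxygen sensing that control Vegfa through the hypoxia-inducible factors, 1 was higher and 4 were lower in 1057 (median -0.12), none of 8 passed in 1064 and none of 6 in 1014-Grpr with edgeR (1 and 0 under an unadjusted p of 0.05). Hif1a, the oxygen-regulated subunit, was higher by 0.08 in 1057 (edgeR adjusted p = 0.0243), and Egln3, a prolyl hydroxylase that is itself a hypoxia target, was lower by 0.85 (log2 -0.85, adjusted p = 1.12e-07). With the block 3 of 8 were lower in 1064 and 1 of 6 in 1014-Grpr. Of the genes that process VEGF-C and VEGF-D, 3 of 3 tested were lower in 1057, and none of 2 passed in 1064 (1 under an unadjusted p of 0.05). Among those lower in 1057 was Ccbe1, a cofactor of VEGF-C cleavage (-1.36, edgeR adjusted p = 1.99e-07). In 1014-Grpr 1 of 4 was higher and 1 lower. The lower was the convertase Pcsk5 (-1.16, edgeR adjusted p = 0.0376), at means of 0.789 CPM in mock and 0.368 with GRP. With the block 2 of 2 were higher in 1064.

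Class 3 semaphorins and plexins moved in both directions. Of 7 class 3 semaphorins, 3 were higher and 2 lower in 1057 (median 0.15), with Sema3e higher (1.89, edgeR adjusted p = 2.42e-07), Sema3a, the classical Nrp1 ligand, lower (-1.22, adjusted p = 6.53e-08) and Sema3c lower (-0.35, adjusted p = 6.05e-06). In 1014-Grpr Sema3c was higher (1.91, edgeR adjusted p = 4.63e-05), the 1 of 5 that passed, and none of 5 passed in 1064 (1 under an unadjusted p of 0.05). With the block 2 of 5 were higher in 1064, Sema3c at 1.14 (edgeR adjusted p = 0.00116), and 3 of 5 in 1014-Grpr. Of the plexins, 2 of 4 were higher and 1 lower in 1057, Plxna2 at 1.22 (edgeR adjusted p = 1.76e-13; with the block 0.48 with 0.0411 in 1064 and 0.38 with 2.03e-04 in 1014-Grpr), none of 5 passed in 1064 (1 under an unadjusted p of 0.05) and 1 of 5 was lower in 1014-Grpr. With the block the counts were 1 higher and 1 lower in 1064 and 3 higher and 1 lower in 1014-Grpr.

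Among 17 genes of VEGF receptor signalling, 3 were higher and 8 lower of 15 tested in 1057 (median -0.12, where 52.6% of all genes passed), 1 higher and 1 lower of 16 in 1064 and 3 higher and 2 lower of 16 in 1014-Grpr, where 6.38% and 29.0% of all genes passed. With the block 2 were higher and 6 lower in 1064 and 4 higher and 6 lower in 1014-Grpr. Shb, an adaptor of Kdr, was higher in 1057 (1.08, edgeR adjusted p = 4.11e-12), 1064 (0.75, adjusted p = 0.0221) and 1014-Grpr (0.66, adjusted p = 0.00226), and the docking protein Gab1 was lower in 1057 (-1.31, adjusted p = 1.12e-13) and, with the block, in 1064 (-0.86, adjusted p = 8.69e-04) and 1014-Grpr (-0.33, adjusted p = 1.23e-04).

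Of 12 other angiogenic ligands, 3 of 6 tested were higher and 3 lower in 1057, 1 of 6 was higher in 1064, and 4 of 8 were higher and 1 lower in 1014-Grpr. Pdgfa, a ligand of the PDGF receptor, was higher in all 3 (1.88 in 1057 with an edgeR adjusted p of 3.62e-15, 1.40 in 1064 with 0.0112, 2.25 in 1014-Grpr with 2.43e-05). Angpt2, the antagonist of the Tie2 receptor, rose in 1057 from 0.758 to 2.58 CPM on average (1.79, edgeR adjusted p = 1.90e-07). Of 8 angiogenesis inhibitors, 5 were higher and 1 lower in 1057 (median 1.06), 1 of 7 was higher in 1064 and 2 of 5 in 1014-Grpr, where 52.6%, 6.38% and 29.0% of all genes passed. Adamts1, a protease that binds VEGF-A, was higher in 1057 (1.58, edgeR adjusted p = 1.52e-17) and 1014-Grpr (1.69, adjusted p = 8.79e-05) and, with the block, in 1064 (0.98, adjusted p = 9.61e-04), with a mean of 496 and 1452 CPM in 1057 in mock and GRP. Col18a1, the source of endostatin, was higher in 1057 (2.18, edgeR adjusted p = 1.86e-07), at means of 0.450 CPM in mock and 2.02 with GRP. Col4a3, the source of tumstatin, was higher in 1057 (2.19, edgeR adjusted p = 1.38e-04) and 1064 (2.49, adjusted p = 0.0180). Its means rose from 0.113 to 0.519 CPM in 1057, where 3 counts corresponded to 0.0922 CPM in mock. In 1064 they rose from 0.493 to 2.80 CPM. With the block 1 ligand was higher and 2 were lower in 1064 and the counts of ligands in 1014-Grpr were the same, and inhibitors were 3 higher and 2 lower in 1064 and 2 higher and 1 lower in 1014-Grpr.

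The genes most like Vegfa, Nrp1 and Pgf were sought over the 24 line-by-treatment means of log2 CPM, each line centred on its own mean, among 12514 genes. The 24 points share libraries and treatments, so the correlations are descriptions. For Vegfa the highest Pearson r was with Atxn2l (0.983), followed by Atf4, a transcription factor of the integrated stress response (0.978), and Mical1 (0.976). For Nrp1 it was with Sik3, a salt-inducible kinase (0.974), Tubb6, a tubulin (0.968), and Zbtb38 (0.959). For Pgf it was with Dnajb2 (0.965), Ahi1 (0.953) and Mia3 (0.952).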

How the data were processed

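PolyA-selected, strand-specific paired-end libraries of 6 mouse melanoma lines were aligned by the authors with STAR to GRCm38 with GENCODE annotation, after FastQC 0.11.5 per the submitters' processing notes. The strand setting of the counting is not given in the sources used here. The authors deposited raw read counts per gene, without normalization, and TPM, normalized for transcript length and library total, in which the 12 columns of 1057 use a decimal comma that was read as a point. Groups came from the sample labels. Of 50600 genes, 99.6% had a symbol in GENCODE release 21, later than the authors' release.

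CPM values are TMM-normalized over all 72 libraries, with totals of 19512882 to 46862053 reads. Reads carry no molecular identifiers, so the floor of 3 counts covers counting error only. No pair of replicates agreed within sampling noise (smallest chi-square per degree of freedom 2.44 over 72 pairs). Tests used R 4.3.3 with edgeR 4.0.16 (filterByExpr, TMM, quasi-likelihood F-test, Benjamini-Hochberg over all genes tested), with GRP, RC and GRP+RC against mock and GRP+RC against GRP in 1 fit per line, the interaction of GRP with the version of 1014 and 1181, and resting levels in 1 fit of the 18 mock libraries. Alternatives were DESeq2 1.42.0, no filter on low counts, the fold rule, 1 fit of all libraries, the replicate number as a block, limma 3.58.1 on log2(TPM + 1) or log2(TPM + 0.1), leaving out each replicate, and leaving out the 2 libraries that went against their labels. The steps were tested on simulated data. Figures used matplotlib 3.10.9.

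Replicate numbers of the labels were taken to pair libraries where each of the 18 same-number correlations of deviations from the group means exceeded 0.1. The lowest was 0.583 in 1064, 0.386 in 1014-Grpr and 0.740 in 1181-Ctrl, which were called paired, and -0.15 in 1057, -0.01 in 1181-Grpr and 0.08 in 1014-Ctrl, which were not. Blocked values stand beside a member or named gene where they change its call. Overlap of CPM values between groups was read for members only and was not counted over all genes.

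The 9 members and the gene lists were chosen with earlier results of these data known. Named genes were all members and, for each pathway list, up to 4 genes past the fold rule with GRP. Hif1a, Egln3 and the marker genes named were chosen after their values were seen. Promoters came from RefSeq on GRCm38.p6. Proteins were not used here.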

Additional observations from a re-analysis of the deposited data

Results flagged for a closer look

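In 1014 the effect of GRP differed between the receptor version and the control version for 2 members, by the interaction test. For Vegfa the log2 difference was 1.14 (edgeR adjusted p = 0.0112), and it stayed past the threshold without the 2 libraries that went against their labels (0.83, adjusted p = 0.0193) and with the block (1.13, adjusted p = 6.69e-04). For Pgf it was 1.51 (edgeR adjusted p = 0.0317), 1.75 without the 2 libraries (adjusted p = 0.01001) and 1.53 with the block (adjusted p = 0.0218). The Pgf counts behind it were 6 to 70 reads per library.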

How the results depend on the processing

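For the 49 member results that passed, or passed with the block in 1064 or 1014-Grpr, 545 of 621 values under the alternatives kept direction and call, 26 lost the call, 49 gained it and 1 reversed. Another 7 member results gained a call in 9 values, 4 of them at rest without the 2 libraries, 1 with the block and 1 with DESeq2 at rest (Nrp2 in 1057 against 1064, adjusted p = 0.00279); Vegfb for GRP+RC against GRP in 1057 gained it without GRP+RC replicate 2 (0.23, edgeR adjusted p = 0.0269), and Vegfd at rest in 1057 against 1014-Ctrl without 1014-Ctrl mock 1 (adjusted p = 0.0193) or mock 3 (0.0406). The reversed value was Vegfb with GRP in 1064, which was 0.0316 on the log2 scale without 1064 mock replicate 1 (edgeR adjusted p = 0.985) and between -0.563 and 0.0316 over the replicates left out. Of the members passing for GRP against mock, the fold rule left 1 in 1057 and 1 in 1014-Grpr. In 1 fit of all libraries Vegfa in 1057 (edgeR adjusted p = 0.114) and Vegfc in 1014-Grpr (0.273) lost the call. In 1064 the count was 3 with DESeq2, 2 with no filter, 3 with limma at either pseudocount, 4 in 1 fit of all libraries and 5 with the replicate block, and 0 to 3 when a replicate was left out. In 1014-Grpr it was 4 with DESeq2, 5 with no filter, 5 with limma at either pseudocount, 6 with the replicate block and 2 to 5 when a replicate was left out. For RC against mock in 1057 the fold rule and the fit of all libraries left 0. For GRP+RC against GRP they left 1 and 0 in 1057. In 1064 that comparison had 4 members passing with the block and 2 in the fit of all libraries, and in 1014-Grpr 0 with the fold rule, 2 with no filter, 4 and 3 with limma at a pseudocount of 1 and 0.1, 0 in the fit of all libraries, 5 with the block and 1 to 3 when a replicate was left out. For GRP+RC against mock 1057 had 1 with the fold rule and 2 in the fit of all libraries, and 1014-Grpr 2 with the block. The interaction in 1014 had 1 with no filter and 1 to 2 when a replicate was left out. At rest, the fold rule left 2 for 1057 against 1064, and 3 passed for 1181-Grpr against 1181-Ctrl without the 2 libraries. Over all genes the block raised the count of genes passing with GRP from 880 to 6006 in 1064 and from 3986 to 7366 in 1014-Grpr. For GRP+RC against GRP the block raised the share from 0.0290% to 21.2% in 1064 and from 11.8% to 38.7% in 1014-Grpr. For GRP+RC against mock in 1014-Grpr it went from 0.947% to 17.3%. In 1181-Ctrl, where replicate numbers paired, the block changed no member call. In 1057, 1181-Grpr and 1014-Ctrl, which the rule did not call paired, the replicate block changed no member call between treatments. There 5, 11 and 12 of 12 libraries correlated best with their own number, and mean same-number correlations were 0.0230, 0.405 and 0.313. By these values 1181-Grpr and 1014-Ctrl lay nearer to the paired lines than 1057 did. Each of them holds 1 library that went against its label, and the rule used the lowest correlation. The cause of the changes in calls was not tested. Counts of 0 to 10 reads left Flt1 and Kdr untested, and Pgf rested on few reads outside 1057 and 1064.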

Other observations

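Marker genes of vessels that are not part of the family were also measured, most of them at low levels. In 1057, of 4 endothelial markers tested 2 were higher and 1 was lower, where 52.6% of all genes passed in either direction. Vwf, the von Willebrand factor gene, went from a mean of 0.266 to 1.34 CPM (log2 2.35, edgeR adjusted p = 2.51e-06), Cdh5, the endothelial cadherin, from 4.65 to 6.44 CPM (0.50, adjusted p = 1.47e-04), and Tek, the angiopoietin receptor, from 2.998 to 1.57 CPM (-0.90, adjusted p = 7.68e-05). In 1014-Grpr Lyve1, a hyaluronan receptor of lymphatic endothelium, had no read in the 3 mock libraries and lay at 0.556, 1.83 and 0.633 CPM with GRP. It was at least 9.26-fold higher with GRP than the floor of 3 counts per library. Its median over the libraries of the line was 0 CPM. Lyve1 passed the filter on low counts through the GRP libraries in which it was high, so no p-value is given. Pecam1, a defining endothelial marker, stayed at or below 0.465 CPM in each of the 72 libraries. Vwf, of the same list, had a median of 22.1 CPM in 1014-Grpr, 16.2 in 1181-Grpr and 12.1 in 1014-Ctrl. Its median was 6.67 CPM in 1064, 5.41 in 1181-Ctrl and 0.593 in 1057. The part of other cells in these values was not tested.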
